A study of Mus musculus with 17 samples.

Results

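Thy1 and 8 other genes of the fibroblast surface were followed across cultured mouse fibroblasts and 2 kinds of extraembryonic endoderm stem cell. The genes were Thy1, Cd44, Cd34, Eng, Fap, Ly6a, Nt5e, Vcam1 and Cav1. They were taken by symbol from the deposited count tables, where all 9 were found among 24015 genes. They were chosen as surface proteins by which fibroblasts and mesenchymal cells are recognised or sorted. The choice, like that of the gene lists below, was made with earlier results of these data known, so counts of these genes only describe.

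All 17 libraries came from cells of CD-1 background. Mouse embryonic fibroblasts (MEF) were the control and had been kept for 3 passages in MEF medium (n = 3, libraries 1, 2 and 3). Extraembryonic endoderm stem (XEN) cell lines were all taken through 10 passages in ESC medium, with 5 more following in either ESC or XEN medium (n = 3 in each, libraries 1, 2 and 7). Induced XEN (iXEN) cells, which the series' title names as induced by OSKM in parallel to iPS cells, followed the same 2 schedules (n = 4 in each, libraries 1, 2, 6 and 9). OSKM stands for the reprogramming factors Oct4, Sox2, Klf4 and c-Myc. No gene deletion or drug is named for any group. The labels do not say which cells each iXEN library started from, how the factors were delivered, or what a library number stands for. Cell type, medium and passage number differ together between MEF and every other group and cannot be told apart in those comparisons. Libraries are called below by cell type, medium and number, so that iXEN XEN 2 is library 2 of the iXEN cells in XEN medium.

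Fibroblasts carry a set of surface proteins that have no single shared function but are used together to define mesenchymal cells. Several of them, Thy1, Ly6a and Nt5e, are held in the outer membrane by a glycosylphosphatidylinositol (GPI) anchor, while Cd44, Cd34, Eng, Fap and Vcam1 span the membrane and Cav1 coats caveolae from the inner side. XEN cells are stem cells of the primitive endoderm lineage, which forms the yolk sac endoderm, and they express the endoderm factors Gata4, Gata6 and Sox17. Loss of Thy1 is widely used to follow mouse fibroblasts through reprogramming.

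Each library held between 20071567 and 45914262 counts in genes, and levels are given as CPM, library-scaled counts, after TMM scaling over all 17 libraries. In one library 3 counts, taken here as the floor of detection, corresponded to 0.0589 to 0.138 CPM. The labelled cell types were checked against their markers. The summed level of 12 fibroblast matrix markers, such as Col1a1, Lum and Lox, was 44298 to 61417 CPM in MEF but only up to 59.2 CPM in 10 of the 14 endoderm libraries. It stood at 8443 CPM in XEN ESC 1, 2448 CPM in iXEN XEN 2, 1202 CPM in iXEN XEN 9 and 428 CPM in XEN ESC 2. These 4 libraries still had all 10 endoderm markers above 1 CPM. They touch most results below, which are therefore given library by library. Summed macrophage markers were 75.5 to 248 CPM in MEF and at most 28.0 CPM elsewhere, with all 8 of them above 1 CPM in every MEF library and at most 2 in any other, and their part in the MEF levels below was not tested. In these bulk libraries fewer cells of a type and less RNA per cell cannot be told apart.

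RefSeq promoter windows (build GRCm38.p6, 250 bases before to 50 after the start) were at hand for 5 of the 9 genes. The files were made on build mm9, so the coordinates belong to the RefSeq table alone. The windows of 3 genes whose level differed widely between libraries of one label are shown, and for Cav1 it is the first of 2 in the table. Eng also differed widely in that way, but its window is not shown. CpG dinucleotides are in capitals.
Cd34, chr1:194938571-194938870, plus strand: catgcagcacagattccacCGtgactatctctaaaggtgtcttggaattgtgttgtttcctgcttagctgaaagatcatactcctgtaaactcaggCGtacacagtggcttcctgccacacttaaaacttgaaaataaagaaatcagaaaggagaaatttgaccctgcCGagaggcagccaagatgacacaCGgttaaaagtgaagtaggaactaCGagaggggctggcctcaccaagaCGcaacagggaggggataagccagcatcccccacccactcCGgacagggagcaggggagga
Cav1, chr6:17306085-17306384, plus strand: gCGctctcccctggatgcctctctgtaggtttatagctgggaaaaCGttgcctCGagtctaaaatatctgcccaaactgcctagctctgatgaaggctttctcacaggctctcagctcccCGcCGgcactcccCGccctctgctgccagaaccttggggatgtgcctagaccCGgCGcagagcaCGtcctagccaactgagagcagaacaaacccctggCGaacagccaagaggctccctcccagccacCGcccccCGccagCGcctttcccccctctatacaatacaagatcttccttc
Nt5e, chr9:88327359-88327658, plus strand: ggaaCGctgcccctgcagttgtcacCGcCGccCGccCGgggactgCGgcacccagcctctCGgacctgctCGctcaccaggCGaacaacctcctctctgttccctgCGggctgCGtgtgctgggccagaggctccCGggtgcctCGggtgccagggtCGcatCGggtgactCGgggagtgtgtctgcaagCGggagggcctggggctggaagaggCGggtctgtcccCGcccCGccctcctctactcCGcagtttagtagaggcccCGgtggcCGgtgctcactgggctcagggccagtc
The Cd34 window held 7 CpG, which is the median over all 32851 windows of the table, the Cav1 window held 13 and the Nt5e window 23. A GATAA motif, searched on both strands and present in 25.4% of windows, was found 1 time in the Cd34 window and in neither of the other two shown. TATAAA, present in 13.6% of windows, was found 1 time in the Cav1 window, and GGGCGG, present in 35.7%, was found 2 times there and 4 times in the Nt5e window. Of the windows not shown, the second of Cav1 held 16 CpG and 1 GATAA but neither TATAAA nor GGGCGG. That of Cd44 held 1 GATAA and 1 GGGCGG, and that of Eng held none of the 3 motifs. None of the 3 motifs contains another, a match is only a match of letters, and no binding or methylation was measured in these samples.

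The 9 genes were mostly lower in endoderm cells than in MEF, most evenly in iXEN cells in ESC medium and in XEN cells in XEN medium. Rose and fell are used where edgeR's quasi-likelihood test gave a Benjamini-Hochberg adjusted p under 0.05 over all genes tested. In the iXEN cells grown in ESC medium 7 of the 9 fell, all except Ly6a and Nt5e, where 46.7% of all 14352 genes tested were called, 25.9% lower and 20.8% higher. The median log2 fold change of the 9 was -7.83, against 0.03 over all genes. XEN cells in XEN medium also had 7 that fell, all except Nt5e and Vcam1, where 47.5% of genes were called, 24.5% lower and 23% higher, and the median of the 9 was -5.39. XEN cells in ESC medium had 1 that fell, Eng, where 25% of genes were called, 13.7% lower and 11.4% higher. iXEN cells in XEN medium had 2 that fell, Cd44 and Fap, where 32.6% were called, 14.9% lower and 17.7% higher. None of the 9 rose in any of the 4. These shares of all genes are the background for every count of listed genes against MEF below.

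Counted by library, 8 of the 9 had every iXEN library in ESC medium below every MEF library, where 31.3% of all genes did. The count was 7 for XEN cells in XEN medium (34.8% of genes), 5 for XEN cells in ESC medium (31.7%) and 4 for iXEN cells in XEN medium (29%). The 4 comparisons share the same 3 MEF libraries and are not independent of each other. Leaving out both iXEN XEN 2 and iXEN XEN 9 took the number that fell in iXEN cells in XEN medium from 2 to 9. Over all genes tested that number went from 2148 of 14438 to 4143 of 14362. Among XEN cells in ESC medium, 3 of the 9 fell without XEN ESC 1 and 2 without XEN ESC 2 or XEN ESC 7. There 1916 of 14001 genes fell with all libraries in. Without libraries 1, 2 and 7 in turn, 2298 of 14379, 2849 of 14485 and 2490 of 14318 fell. For iXEN cells in XEN medium, 0 of the 9 fell without any one MEF library, 1 without iXEN XEN 6 and 5 without iXEN XEN 2. Of all genes, 1007 to 1205 fell without 1 MEF library, 1628 without iXEN XEN 6 and 2733 without iXEN XEN 2.

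**Figure D1:**
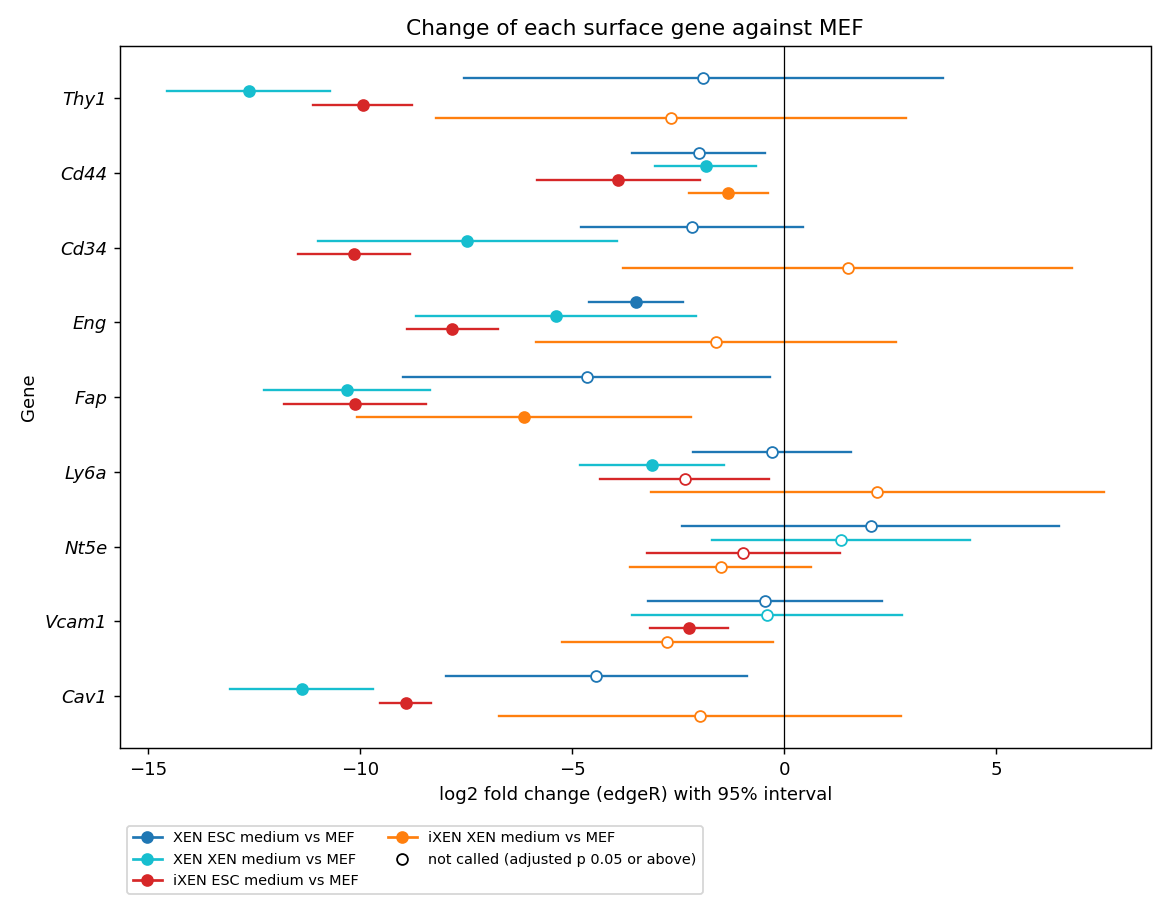
Log2 fold change against MEF (horizontal axis, edgeR, with 95% intervals) of the 9 surface genes in the 4 endoderm groups, filled where adjusted p was under 0.05. The red and light blue points (iXEN in ESC medium, XEN in XEN medium) are mostly filled with short intervals, whereas the orange and dark blue intervals of the groups with split libraries mostly cross or approach 0.

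Thy1 encodes a GPI-anchored glycoprotein of the immunoglobulin superfamily. Its level was 334, 385 and 128 CPM in MEF 1, 2 and 3. Its level in iXEN ESC libraries was 0.378, 0.186, 0.277 and 0.294 CPM in libraries 1, 2, 6 and 9, and in XEN cells in XEN medium 0.0245, 0.0825 and 0.0196 CPM in libraries 1, 2 and 7. Neither of these 2 groups came near MEF. The other 2 groups were split. XEN cells in ESC medium had 216, 0.313 and 0 CPM in libraries 1, 2 and 7, and iXEN cells in XEN medium 0, 163, 0.0301 and 0.203 CPM in libraries 1, 2, 6 and 9. XEN ESC 1 and iXEN XEN 2 thus lay inside the MEF range, and together they held 99.5% of the summed Thy1 level of the 14 endoderm libraries.

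Against MEF, Thy1 fell in iXEN cells in ESC medium (log2 fold change -9.94, SE 0.51, adjusted p = 2.67e-06, edgeR). In XEN cells in XEN medium the log2 fold change was -12.63 (SE 0.80, adjusted p = 0.000243). The 2 split groups gave -1.91 with a 95% interval of -7.56 to 3.74 (XEN, ESC medium, adjusted p = 0.565) and -2.67 with an interval of -8.22 to 2.88 (iXEN, XEN medium, adjusted p = 0.408). Without XEN ESC 1 the former became -10.95 (adjusted p = 0.0115), and without iXEN XEN 2 the latter became -11.58 (adjusted p = 0.00144). Both calls therefore turned on 1 library each.

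**Figure D2:**
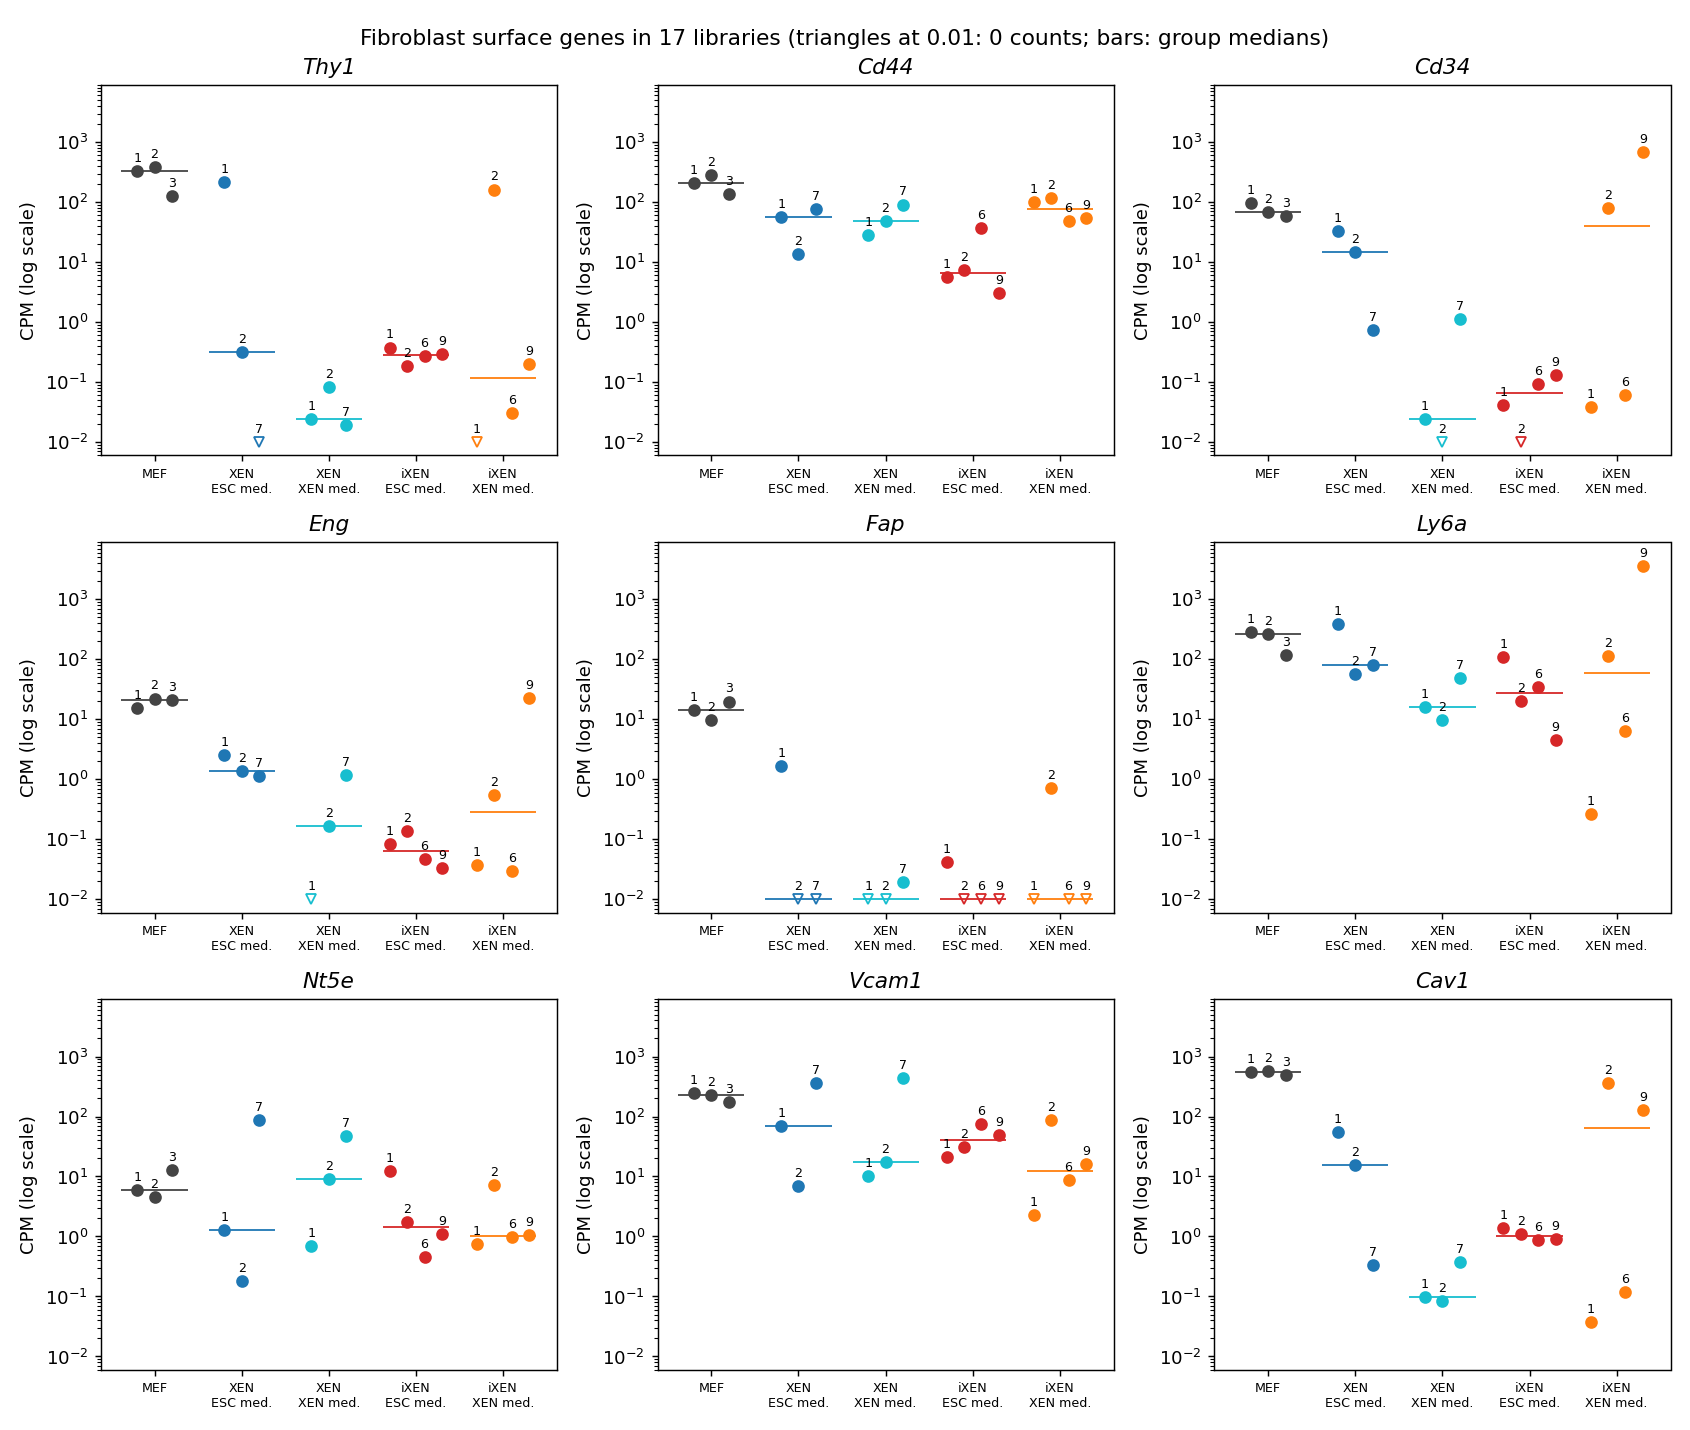
Level of each of the 9 surface genes in every library (CPM on a log axis, one panel per gene), with the library number beside each point, a bar at the group median and open triangles at 0.01 for 0 counts. Thy1 lies at 128 CPM or above in the MEF libraries, XEN ESC 1 and iXEN XEN 2, and at 0.378 CPM or below in all others.

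Fap, fibroblast activation protein, is a membrane serine protease that cleaves after proline, and it had no counts in most endoderm libraries. Its level was 14.1, 9.90 and 19.8 CPM in MEF 1, 2 and 3, while 10 of the 14 endoderm libraries had 0 counts. The 4 libraries with any count were XEN ESC 1 at 1.70 CPM, iXEN XEN 2 at 0.713 CPM, iXEN ESC 1 at 0.0420 CPM and XEN XEN 7 at 0.0196 CPM. No endoderm library reached the lowest MEF value.

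Fap had 1 count over the 4 iXEN libraries in ESC medium against 1301 counts over MEF, a ratio of 1795 with a 95% counting interval of 322 to 70960 that covers counting error only. The same ratio for XEN cells in XEN medium, again with 1 count, was 1930 (interval 346 to 76300). Fap fell in both (edgeR, adjusted p = 1.62e-05 and 0.00048) and in iXEN cells in XEN medium (log2 fold change -6.15, SE 1.69, adjusted p = 0.0298), although that last call was lost without any one of the MEF libraries. In XEN cells in ESC medium the log2 fold change was -4.65 (adjusted p = 0.101), and without XEN ESC 1 it was -11.72 (adjusted p = 0.00668).

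Fap was measured beside 7 other genes of the prolyl peptidase family. Dpp4, its closest relative and a surface peptidase of many epithelia, rose in all 4 comparisons with MEF, with log2 fold changes of 3.29 and 4.07 in iXEN cells in ESC and XEN medium and 3.34 and 5.31 in XEN cells in ESC and XEN medium (adjusted p = 0.000652, 0.0194, 0.022 and 0.00544, edgeR). Of the family members tested, 2 of 6 rose and 1 of 6 fell in iXEN cells in ESC medium, and 1 of 6 rose and 2 of 6 fell in either cell type in XEN medium. In XEN cells in ESC medium 1 of 5 rose, Dpp4, and none fell. Over the 4 comparisons 11.4% to 23% of all genes rose and 13.7% to 25.9% fell.

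Cav1 encodes caveolin-1, the coat protein of caveolae, and was the most abundant of the 9 in MEF by CPM, which does not correct for transcript length. It was read at 560.2, 571 and 486 CPM in MEF 1, 2 and 3. iXEN cells in ESC medium had 1.39, 1.12, 0.876 and 0.914 CPM in libraries 1, 2, 6 and 9, a narrow range. XEN cells in XEN medium had 0.0979, 0.0825 and 0.373 CPM in libraries 1, 2 and 7, below every iXEN library in ESC medium. XEN cells in ESC medium ran from 56.1 through 15.7 to 0.339 CPM in libraries 1, 2 and 7. iXEN cells in XEN medium had 0.0380, 367, 0.120 and 128 CPM in libraries 1, 2, 6 and 9. All 14 endoderm libraries were below the lowest MEF library, but iXEN XEN 2 and iXEN XEN 9 reached 68.0% and 23.7% of the MEF mean.

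Cav1 fell in iXEN cells in ESC medium (log2 fold change -8.93, SE 0.26, adjusted p = 4.14e-07, edgeR) and in XEN cells in XEN medium (-11.38, SE 0.70, adjusted p = 0.000227). It was not called in XEN cells in ESC medium (-4.43, SE 1.48, adjusted p = 0.0712) or in iXEN cells in XEN medium (-1.99, SE 2.04, adjusted p = 0.471), and in the former it was called without XEN ESC 7 (-3.71, adjusted p = 0.0125).

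The other genes of caveolae moved down with it in part. Of 9 tested, 6 fell in iXEN cells and 4 in XEN cells in the groups just named as called (25.9% and 24.5% of all genes). In each of the other groups 2 fell, beside 13.7% (XEN, ESC medium) and 14.9% (iXEN, XEN medium) of all genes. None rose in any of the 4 comparisons. Cav3, the muscle caveolin, fell in all 4 comparisons with log2 fold changes between -9.81 and -7.95. Ptrf, which encodes the coat protein cavin-1, fell in iXEN cells in ESC medium (-9.26, SE 0.49, adjusted p = 2.99e-06) and in XEN cells in XEN medium (-8.02, SE 0.67, adjusted p = 0.000574), and Prkcdbp, encoding cavin-3, fell in the same 2 comparisons (-8.76 and -5.44).

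**Figure D3:**
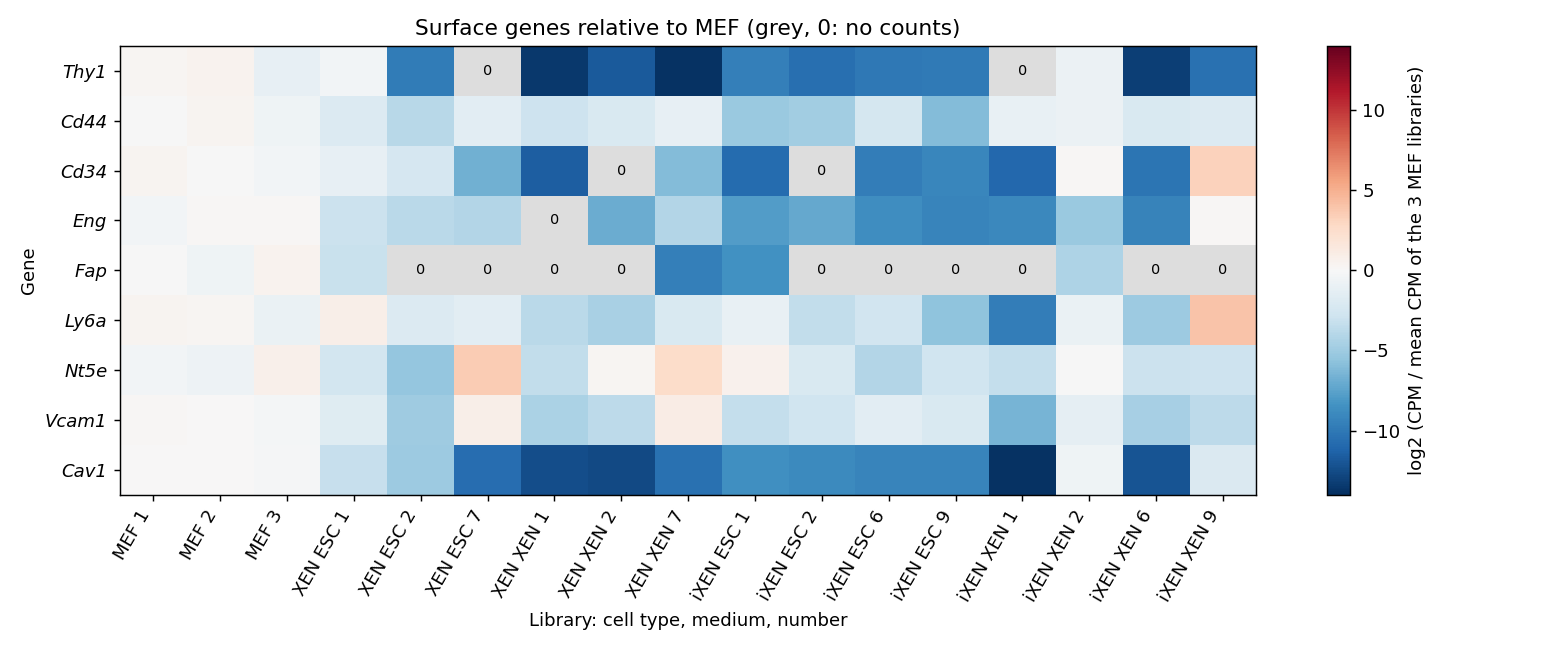
Heat map of the 9 surface genes (rows) in the 17 libraries (columns), coloured by log2 of the CPM over the mean CPM of the 3 MEF libraries, with grey cells marked 0 where the gene had no counts. Thy1, Fap and Cav1 are dark blue or grey in most endoderm columns, whereas Cd34 and Ly6a in iXEN XEN 9 and Nt5e in both XEN 7 libraries are red.

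Cd34, a sialomucin of blood progenitors, endothelium and interstitial fibroblasts, was read at 95.7, 69.5 and 59.3 CPM in MEF 1, 2 and 3. It was 0.0420, 0, 0.0922 and 0.131 CPM in iXEN ESC 1, 2, 6 and 9, all at 4 counts or fewer. XEN cells in ESC medium had 32.6, 14.6 and 0.730 CPM in libraries 1, 2 and 7, and those in XEN medium 0.0245, 0 and 1.12 CPM. iXEN cells in XEN medium had 0.0380, 80.9, 0.0602 and 679 CPM in libraries 1, 2, 6 and 9. The highest Cd34 level of the series was thus in an endoderm library, iXEN XEN 9, at 907% of the MEF mean.

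Against MEF, Cd34 fell in iXEN cells in ESC medium (log2 fold change -10.15, SE 0.58, adjusted p = 4.72e-06, edgeR) and in XEN cells in XEN medium (-7.48, SE 1.46, adjusted p = 0.0081). The estimates for XEN cells in ESC medium (-2.17, SE 1.09, adjusted p = 0.18) and iXEN cells in XEN medium (1.49, SE 2.28, adjusted p = 0.631) were not called, and the sign of the latter turned to -1.35 without iXEN XEN 9. Podxl, podocalyxin, the sialomucin most related to Cd34 and a protein of epithelial apical membranes, rose in all 4 comparisons with MEF, by 7.41 to 8.39 on the log2 scale. It was the only sialomucin or selectin tested that rose. Others of that list fell, 2 of 4 tested in iXEN cells in ESC medium and 1 of 5 in XEN medium. In XEN cells 1 of 5 fell in ESC medium and 2 of 5 in XEN medium.

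Eng encodes endoglin, a co-receptor for ligands of the TGF-beta family that is most abundant on endothelium. Its level was 15.4, 22.2 and 21.3 CPM in MEF 1, 2 and 3 and 2.52, 1.39 and 1.12 CPM in XEN ESC 1, 2 and 7. XEN cells in XEN medium had 0, 0.165 and 1.16 CPM in libraries 1, 2 and 7, and iXEN cells in ESC medium 0.0840, 0.139, 0.0461 and 0.0327 CPM in libraries 1, 2, 6 and 9. Among iXEN cells in XEN medium 3 libraries had at most 0.541 CPM and iXEN XEN 9 had 22.7 CPM, above all MEF libraries.

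Eng was the only one of the 9 that fell in XEN cells in ESC medium (log2 fold change -3.49, SE 0.46, adjusted p = 0.00693, edgeR), a call that was lost in the fit of all 17 libraries (adjusted p = 0.172). It fell further in iXEN cells in ESC medium by estimate (-7.83, SE 0.47, adjusted p = 6.17e-06) and also in XEN cells in XEN medium (-5.39, SE 1.37, adjusted p = 0.0201), although this last call was lost without any one MEF library or without XEN XEN 2 (adjusted p between 0.0540 and 0.0678). In iXEN cells in XEN medium it was -1.60 (SE 1.82, adjusted p = 0.516), and without iXEN XEN 9 it was -6.42 (adjusted p = 0.00979).

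Of 15 tested genes of the endoglin receptor complex and its ligands and targets, 11 fell in iXEN cells and 8 in XEN cells in ESC medium, 7 fell in each of the 2 groups in XEN medium, and none rose. Acvrl1, the type I receptor ALK1 that endoglin serves, fell in iXEN cells in ESC medium and in XEN cells in both media. Its level was 20.8 CPM in iXEN XEN 9 beside 16.1 to 20.8 CPM in MEF.

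Ly6a encodes Sca-1, a GPI-anchored protein of stem and progenitor cells in several mouse tissues. It varied widely between libraries of one group. MEF had 281, 266 and 119 CPM in libraries 1, 2 and 3, XEN ESC 1, 2 and 7 had 384, 56.9 and 81.4 CPM, and XEN XEN 1, 2 and 7 had 15.8, 9.71 and 48.9 CPM. iXEN cells in ESC medium had 109, 20.2, 34.1 and 4.44 CPM in libraries 1, 2, 6 and 9, and those in XEN medium 0.266, 113, 6.35 and 3536 CPM. iXEN XEN 9 was the highest library of the series for this gene, and XEN ESC 1 was the other endoderm library above all MEF libraries.

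Against MEF, Ly6a fell in XEN cells in XEN medium (log2 fold change -3.11, SE 0.70, adjusted p = 0.0136, edgeR), a call that was lost in the fit of all 17 libraries (adjusted p = 0.24), and no other comparison was called. The estimate in iXEN cells in ESC medium, -2.35 (SE 0.87, adjusted p = 0.0539), was called without iXEN ESC 1 (-3.46, adjusted p = 0.00856) and without iXEN ESC 9 (-1.97, adjusted p = 0.0428). With all libraries in, it was also called by DESeq2, with no filter on low counts and with the replicate block. For iXEN cells in XEN medium the estimate was 2.19 (SE 2.30, adjusted p = 0.48) and turned to -2.37 without iXEN XEN 9. Ly6a belongs to a family of close gene copies, and reads shared with a near relative cannot be placed, so its level is uncertain. Ly6c1, one such relative, was 16.7 to 43.7 CPM in MEF and 628 CPM in iXEN XEN 9. Among 9 family members tested in iXEN cells in ESC medium, 5 rose and 2 fell. The counts were 4 and 2 of 8 in XEN cells in ESC medium and 4 and 0 of 8 in XEN cells in XEN medium. They were 3 and 1 of 7 in iXEN cells in XEN medium. Among all genes 11.4% to 23% rose and 13.7% to 25.9% fell in the 4 comparisons. Psca, a prostate and epithelial surface protein, had the largest estimate of the family in iXEN cells in ESC medium (10.61, SE 1.47, adjusted p = 0.00054).

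Cd44, the main cell surface receptor for hyaluronan, kept measurable levels in every library. MEF 1, 2 and 3 had 206, 283 and 139 CPM. XEN cells had 56.8, 13.7 and 76.6 CPM in ESC medium and 28.5, 48.5 and 91.4 CPM in XEN medium, in libraries 1, 2 and 7. iXEN cells had 5.63, 7.32, 37.8 and 3.00 CPM in ESC medium and 101, 116, 47.6 and 54.8 CPM in XEN medium, in libraries 1, 2, 6 and 9. None of the 14 endoderm libraries reached the lowest MEF library.

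Cd44 fell in iXEN cells in ESC medium (log2 fold change -3.92, SE 0.84, adjusted p = 0.00538, edgeR), in iXEN cells in XEN medium (-1.32, SE 0.40, adjusted p = 0.0398) and in XEN cells in XEN medium (-1.85, SE 0.49, adjusted p = 0.0233). In XEN cells in ESC medium the estimate was -2.02 (SE 0.65, adjusted p = 0.0649). The latter was called without XEN ESC 2 (-1.45, adjusted p = 0.0342). The call in iXEN cells in XEN medium was lost without any one MEF library and without iXEN XEN 6 or 9 (adjusted p between 0.0606 and 0.140). The call in XEN cells in XEN medium was lost without MEF 1, MEF 2 or XEN XEN 2 (adjusted p between 0.0630 and 0.0727), and both were lost in the fit of all 17 libraries (adjusted p = 0.178 and 0.103). Of the genes that make, bind or tether hyaluronan, 3 of 14 rose and 7 fell in iXEN cells in ESC medium. In iXEN cells in XEN medium 2 of 14 rose and 2 fell. In XEN cells 3 of 13 fell in ESC medium, and 2 of 13 rose and 6 fell in XEN medium. The shares of all genes that rose and fell were 20.8% and 25.9%, 17.7% and 14.9%, 11.4% and 13.7%, and 23% and 24.5%, in that order. Has2, the main hyaluronan synthase of fibroblasts, fell in iXEN cells in ESC medium (-12.23, SE 0.79, adjusted p = 9.11e-06) and in XEN cells in XEN medium (-7.12, SE 1.70, adjusted p = 0.0165), and Msn, moesin, which ties Cd44 to actin, fell in XEN cells in ESC medium (-2.95) and in iXEN cells in XEN medium (-2.69). Habp2, a secreted hyaluronan-binding protease of liver and endoderm, rose in iXEN cells in both media (9.37 and 7.28).

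Vcam1, an immunoglobulin-family adhesion receptor for the integrin alpha-4 beta-1, was read at 242, 226 and 172 CPM in MEF 1, 2 and 3. XEN cells had 68.4, 6.98 and 363 CPM in ESC medium and 10.2, 17.2 and 438 CPM in XEN medium, in libraries 1, 2 and 7, so that library 7 was above all MEF libraries in both media. iXEN cells had 20.8, 31.5, 73.9 and 48.4 CPM in ESC medium and 2.32, 88.2, 8.75 and 16.2 CPM in XEN medium, in libraries 1, 2, 6 and 9. Every iXEN library was below every MEF library.

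Vcam1 fell in iXEN cells in ESC medium (log2 fold change -2.25, SE 0.40, adjusted p = 0.00207, edgeR), a call that was lost in the fit of all 17 libraries (adjusted p = 0.22). The estimate for iXEN cells in XEN medium was -2.76 (SE 1.07, adjusted p = 0.0822), and without iXEN XEN 2 it was -4.43 (adjusted p = 0.00618). In XEN cells the estimates were -0.46 in ESC medium (SE 1.15, adjusted p = 0.783) and -0.41 in XEN medium (SE 1.32, adjusted p = 0.817), and the second became -3.91 without XEN XEN 7 (adjusted p = 0.000328). Itga4, which encodes the integrin subunit that binds Vcam1, fell in XEN cells in ESC medium (-1.96, SE 0.52, adjusted p = 0.0389) and in XEN medium (-2.92, SE 0.34, adjusted p = 0.00156). Among 10 tested integrin genes and partners, 6 fell in iXEN cells in ESC medium (25.9% of all genes) and 4 in XEN cells in XEN medium (24.5%). In each of the other groups 2 fell, near the shares of all genes, 13.7% (XEN, ESC medium) and 14.9% (iXEN, XEN medium). None of the 10 rose.

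Nt5e encodes CD73, a GPI-anchored enzyme that forms adenosine from AMP, and it alone of the 9 had no call in any of the 4 comparisons with all libraries in. MEF 1, 2 and 3 had 6.04, 4.59 and 12.6 CPM, the lowest MEF median of the 9. XEN cells had 1.28, 0.179 and 88.6 CPM in ESC medium and 0.686, 9.05 and 47.2 CPM in XEN medium, in libraries 1, 2 and 7. iXEN cells had 12.2, 1.77, 0.461 and 1.11 CPM in ESC medium and 0.760, 7.26, 0.993 and 1.04 CPM in XEN medium, in libraries 1, 2, 6 and 9. Each of the 4 endoderm groups overlapped MEF.

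The log2 fold changes of Nt5e against MEF were -0.96 (iXEN, ESC medium, adjusted p = 0.458, edgeR), 2.04 (XEN, ESC medium, adjusted p = 0.432), -1.5 (iXEN, XEN medium, adjusted p = 0.235) and 1.35 (XEN, XEN medium, adjusted p = 0.406). Without XEN ESC 7 the second turned to -3.19 (adjusted p = 0.0528). Without iXEN ESC 1 the first became -2.75 (adjusted p = 0.0103), and without iXEN XEN 2 the third became -2.96 (adjusted p = 0.00783), and each was then called. Of the adenosine pathway, Adora1, the A1 adenosine receptor, rose in all 4 comparisons by 7.65 to 8.06 on the log2 scale, and Alpl, tissue-nonspecific alkaline phosphatase, fell in iXEN cells in both media (-7.32 and -6.18) and in XEN cells in ESC medium (-3.62). Of the 13 or 14 pathway genes tested, 2 or 3 rose in each comparison and 1 to 4 fell, beside 11.4% to 23% of all genes that rose and 13.7% to 25.9% that fell.

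Of 22 further surface proteins of fibroblasts that were tested, 18 fell in iXEN cells in ESC medium, 17 in XEN cells in XEN medium, 9 in XEN cells in ESC medium and 8 in iXEN cells in XEN medium, and none rose. Tmem119 (-10.88 and -10.74) and Ddr2, a collagen receptor (-8.99 and -10.72), fell in iXEN cells in ESC medium and in XEN cells in XEN medium. Among the largest falls in XEN cells in ESC medium and iXEN cells in XEN medium were Itga11, a collagen-binding integrin subunit (-6.54 and -7.81), and Cdh11, the mesenchymal cadherin (-5.89 and -6.58). Genes were named by size within each group, so one not named for a group may have fallen there too. All 12 matrix markers and 7 of 7 tested regulators such as Prrx1 fell in iXEN cells in ESC medium. The GPI anchoring genes, whose products build and attach the anchor that Thy1, Ly6a and Nt5e need, were counted too. Of 15, 5 rose and 2 fell in iXEN cells in ESC medium, 4 rose and 1 fell in XEN cells in XEN medium, 2 rose in XEN cells in ESC medium and 3 rose in iXEN cells in XEN medium, beside 20.8%, 23%, 11.4% and 17.7% of all genes that rose. Pigf rose in XEN cells in XEN medium by 2.22 (SE 0.37, adjusted p = 0.00451, edgeR).

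The matrix markers and the surface genes were high in the same few libraries, but not in equal measure. XEN ESC 1, at 15.7% of the MEF mean for the summed matrix markers, was at 76.5% for Thy1, 173% for Ly6a, 43.5% for Cd34, 12.8% for Eng, 11.6% for Fap and 10.4% for Cav1. iXEN XEN 2, at 4.57% for the matrix markers, was at 57.6% for Thy1, 68.0% for Cav1, 108% for Cd34 and 93.6% for Nt5e, but at 4.88% for Fap and 2.75% for Eng. Its ratio of Thy1 to matrix markers therefore exceeded that of the MEF mean. iXEN XEN 9, at 2.24% for the matrix markers, was at 0.0718% for Thy1 and had 0 counts of Fap, while Cd34, Ly6a and Eng were above their MEF mean. XEN ESC 2, at 0.798%, had 14.6 CPM of Cd34 and 15.7 CPM of Cav1 beside 0.313 CPM of Thy1. The 4 libraries thus differed in which surface genes they held, and whether other cells contributed to any of them was not tested.

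**Figure D4:**
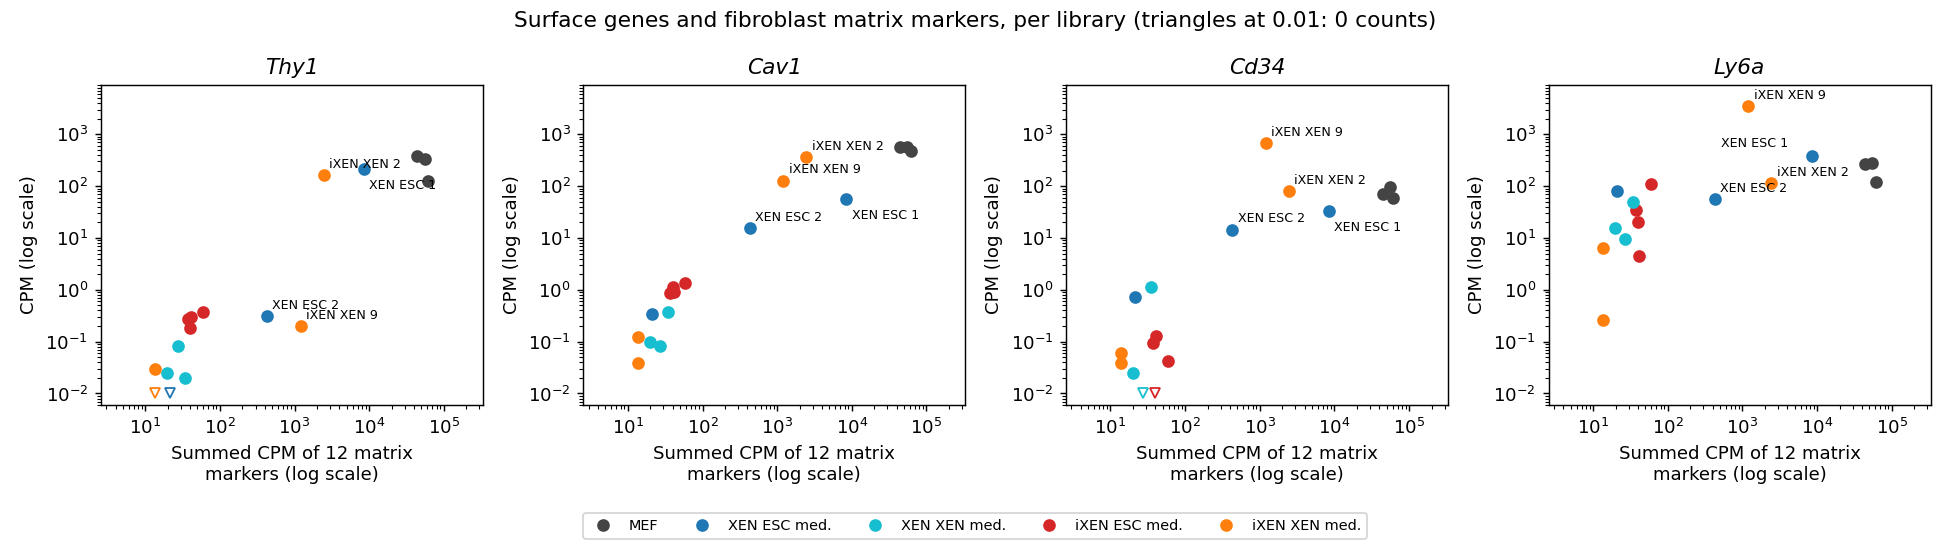
Level of Thy1, Cav1, Cd34 and Ly6a (vertical axis, CPM, log scale) against the summed CPM of 12 fibroblast matrix markers (horizontal axis, log scale), one point per library, with triangles at 0.01 for 0 counts. XEN ESC 1 and iXEN XEN 2 are near MEF for Thy1 whereas iXEN XEN 9 and XEN ESC 2 are not, although for Cav1 and Cd34 all 4 libraries are above the other endoderm libraries.

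Both libraries numbered 7 of the XEN cells differed in another way. Their matrix markers were at 21.2 and 34.4 CPM in ESC and XEN medium, against 44298 CPM or more in MEF, while Nt5e was at 1142% and 609% of the MEF mean and Vcam1 at 170% and 205%. Of 8 endothelial markers, Pecam1 was 91.9 and 179 CPM, Tie1 104 and 147 CPM, and Vwf 624 and 649 CPM in these 2 libraries. The summed level of all 8 markers was 1133 and 1647 CPM there and at most 701 CPM in any other library. They also had the lowest summed endoderm markers of the 14 endoderm libraries, 7417 and 13873 CPM, and the highest summed epithelial markers, 6241 and 2770 CPM. Elsewhere Pecam1 was at most 7.38 CPM and Tie1 at most 4.80 CPM, both in iXEN XEN 2. Emcn, another endothelial marker, was at most 0.391 CPM in the 2 libraries. Endothelial marker RNA was not particular to these 2 libraries. The summed 8 markers were at 51.6 CPM or more in every endoderm library, against at most 23.0 CPM in MEF. Esam, Cdh5 and Tek of that list rose in iXEN cells in both media against MEF. Pecam1, Tie1 and Vwf were picked from the marker list after their values were seen, and the part of endothelial or other cells in Nt5e and Vcam1 was not tested.

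iXEN and XEN cells in the same medium were compared next, and edgeR called no gene at all in either medium. In ESC medium 0 of 12944 genes (0%) and 0 of 7 surface genes tested were called, with 1770 genes and 3 of the 7 at an unadjusted p under 0.05, and DESeq2 called 530 genes and 3 of the 7. In XEN medium 0 of 13263 genes (0%) and 0 of 7 were called, with 544 genes and 2 of the 7 at an unadjusted p under 0.05, and DESeq2 called 134 genes and 1 surface gene. Thy1 and Fap did not pass the filter on low counts in either. In ESC medium every iXEN library was below every XEN library for Cd34 and Eng (log2 fold change -7.92 and -4.38, SE 1.45 and 0.70, adjusted p = 0.157 and 0.147), where 6.16% of genes had groups that did not overlap in that direction. Without XEN ESC 7, Cd34 (-8.49) and Cav1 (-5.09) were called there, each at an adjusted p of 0.0283. In XEN medium Cav1 (9.35, interval 2.31 to 16.4, adjusted p = 0.985) and Cd34 (8.93, interval 0.94 to 16.9, adjusted p = 0.985) had positive estimates that rested on iXEN XEN 2 and 9. A difference that misses the threshold does not show that the 2 cell types carry these genes alike.

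XEN medium was then set against ESC medium within each cell type. In XEN cells 0 of 13241 genes (0%) and 0 of 7 surface genes were called by edgeR, with 746 genes and 3 of the 7 at an unadjusted p under 0.05, and DESeq2 called 89 genes and 1 surface gene. Ly6a was lower in XEN medium in 3 of 3 same-numbered pairs, by 24.3, 5.86 and 1.67 times in libraries 1, 2 and 7 (log2 fold change -2.86, SE 0.95, adjusted p = 0.8), with groups that did not overlap, as for 5.13% of genes in that direction. Cav1 was 573 times lower in XEN XEN 1, at 4 counts, than in XEN ESC 1 (log2 fold change between the groups, unpaired edgeR fit, -7.02, SE 1.81, adjusted p = 0.8). Its 2 libraries numbered 7 were alike at 0.339 and 0.373 CPM.

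In iXEN cells 0 of 12920 genes (0%) and 0 of 5 surface genes tested were called by edgeR, with 3018 genes and 2 of the 5 at an unadjusted p under 0.05, and DESeq2 called 1637 genes and 3 surface genes. Cd44 was higher in XEN medium in 4 of 4 same-numbered pairs, by 17.9, 15.8, 1.26 and 18.2 times in libraries 1, 2, 6 and 9 (log2 fold change 2.58, SE 0.76, adjusted p = 0.112). Its groups did not overlap, as for 6.21% of genes in that direction, and without iXEN ESC 6 it was called (3.90, adjusted p = 0.0313). Cd34 went from 0 to 3289 counts in library 2 and was 5198 times higher in XEN medium in library 9, from 4 counts in ESC medium. Libraries 1 and 6 had 1 or 2 counts of it in either medium. Ly6a, Cav1, Nt5e and Vcam1 went in opposite directions in different pairs. Ly6a was 796 times higher in library 9 and 411 times lower in library 1, where XEN medium had 7 counts. Cav1 was 329 and 140 times higher in libraries 2 and 9. In library 6 it was 7.28 times lower, at 4 counts in XEN medium against 19. Thy1 was 874 times higher in library 2, from 8 counts in ESC medium. In library 9 it was within counting error between the media, at 9 and 7 counts. Ratios over so few counts are rough.

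The difference between the 2 cell types in their response to medium was tested as an interaction. edgeR called 0 of 14357 genes (0%) and 0 of 8 surface genes, with 2131 genes and 5 of the 8 at an unadjusted p under 0.05, and DESeq2 called 498 genes and 2 surface genes. The largest estimates were for Thy1 (17.94, SE 5.00, adjusted p = 0.221) and Cd34 (16.89, SE 4.13, adjusted p = 0.221). Among endoderm libraries Thy1 was high only in XEN ESC 1 and iXEN XEN 2, and leaving out 1 library in turn gave estimates of 8.92 to 18.63. Without iXEN XEN 2 and 9 together the Cd34 estimate was 5.03.

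**Figure D5:**
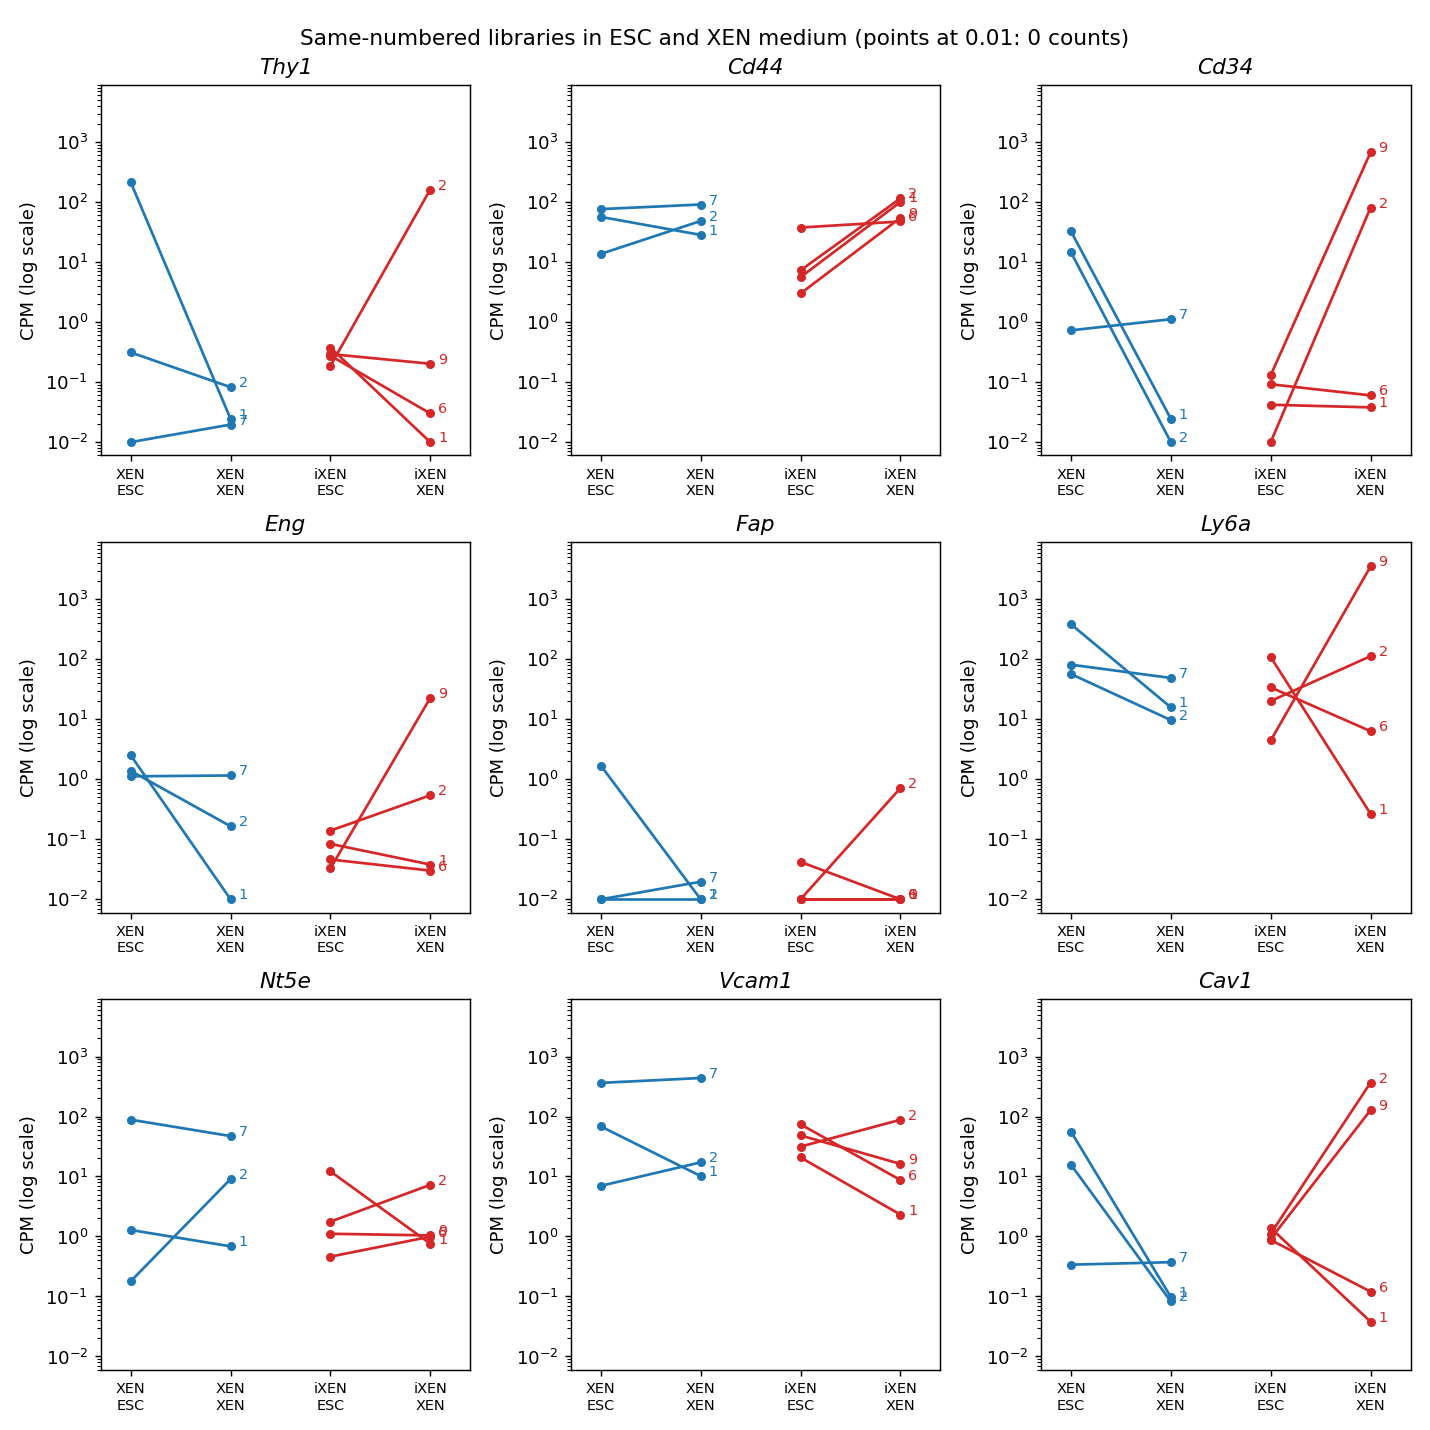
Level of each surface gene (CPM, log scale) in ESC and XEN medium, with lines joining libraries of the same number in XEN cells (blue) and iXEN cells (red), and points at 0.01 for 0 counts. The Cd44 lines rise in all 4 iXEN pairs and the Ly6a lines fall in all 3 XEN pairs, whereas lines of Thy1, Cd34 and Cav1 cross.

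Ordered by group median, MEF came first for 8 of the 9 genes, and XEN cells in XEN medium came first for Nt5e. Only for Cd44, Eng, Fap and Cav1 did MEF not overlap the next group in that order, although for Eng iXEN cells in XEN medium, lower in that order, overlapped MEF through library 9. Below MEF, neighbouring groups overlapped except between XEN and iXEN cells in ESC medium for Cd34 and between iXEN cells in ESC medium and XEN cells in XEN medium for Cav1.

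The genes whose logCPM followed Thy1 most closely over the 17 libraries, out of 12759 candidates with a mean of at least 1 CPM, were Tnfaip6, Actg2, Dpt, Fgf7 and Gli2 (Pearson's r 0.98 to 0.99). For the other genes the closest was Srpx for Fap (0.993), Tnc for Cav1 (0.989), Igfbp3 for Eng (0.981), Casp4 for Vcam1 (0.967), Trib2 for Cd34 (0.964), Igsf8 for Cd44 (0.943), A430105I19Rik for Ly6a (0.910) and Angptl4 for Nt5e (0.867). Among the 9 themselves, over the 14 endoderm libraries, Thy1 went with Fap (r = 0.955), which had 0 counts in 10 of them, and with Cav1 (0.780). Cd34 went with Cav1 (0.903), Eng (0.877) and Ly6a (0.763), and Ly6a also with Eng (0.808) and Cav1 (0.748). Nt5e went with Vcam1 (0.697), while Nt5e and Cav1 were unrelated (-0.137). These values describe libraries that share the same few high points, and they carry no test.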

How the data were processed

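Messenger RNA of 17 samples was sequenced after Trizol extraction with the Illumina TruSeq mRNA kit, per the labels' protocols. The authors deposited raw read counts for each gene. The submitters' processing notes name HTSeq 0.6.1, FastQC 0.11.3, Trimmomatic 0.32, TopHat2 2.0.12 and build mm9. Neither annotation nor strand setting is named in the sources used here. Counts of overlapping, antisense or near-identical genes are therefore uncertain. Counter summary lines (20.8% to 33.1% of each file) were left out.

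Each comparison used only the libraries of its groups, with filterByExpr (minimum count 10, minimum total 15), TMM factors and edgeR 4.0.16's two-sided quasi-likelihood test in R 4.3.3. A gene rose or fell when its Benjamini-Hochberg adjusted p was under 0.05 over all genes tested. SE is the log2 fold change over the square root of F. logCPM has a prior count of 2. There were 9 comparisons, and 4 of them are with MEF. DESeq2 1.42.0, RLE size factors, no filter, a fit of all 17 libraries, a replicate block and leaving out libraries were the alternatives. The tests were checked on simulated counts with the same spread for every gene, no outlying library and changes in well-counted genes only. That check covers neither groups with split libraries nor genes near the floor. The design text speaks of biological replicates, but nothing ties them to separate cultures or derivations, so p-values measure only the spread between these libraries. No pair of libraries agreed within sampling noise (chi-square per degree of freedom 43.4 or more). Same-numbered XEN libraries of the 2 media deviated together (correlation of deviations 0.241, 0.394 and 0.643 for numbers 1, 2 and 7 over 12768 genes). Number 2 correlated more closely with another number (0.450), so a pairing by number was not settled. Between media in XEN cells the blocked fit changed no call of a surface gene.

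The genes and the lists beside them were chosen with earlier results of these data known. Beside the 9, up to 3 called genes of each list with the largest absolute log2 fold change in each comparison against MEF were named. A listed gene not named for a comparison may have been called there too. The genes with the highest correlation to each of the 9 were also named. Acvrl1 in XEN medium, Ly6c1 levels and the endothelial genes were named after their values were seen. One gene that this rule names is not reported here.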

Additional observations from a re-analysis of the deposited data

Results flagged for a closer look

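Within the 18 gene and group combinations of 4 libraries, 10 had 1 library apart from the other 3 by a gap above Dixon's critical value. Chance gives about 1 in 20 for normally distributed, independent values. CPM are skewed and the combinations share libraries, so that rate does not apply and the flags only describe. For Fap the other 3 libraries had 0 counts in both groups, so any count was flagged. Of the iXEN libraries in XEN medium, number 2 stood apart for Thy1 (163 CPM), Vcam1 (88.2 CPM), Nt5e (7.26 CPM) and Fap (0.713 CPM). Number 9 stood apart for Ly6a (3536 CPM), Cd34 (679 CPM) and Eng (22.7 CPM). Of the iXEN libraries in ESC medium, number 6 stood apart for Cd44 (37.8 CPM), and number 1 for Nt5e (12.2 CPM) and for Fap (0.0420 CPM), the last being a single count. All 10 were the highest library of their group. The groups of 3 were not tested.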

How the results depend on the processing

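Of 883 alternative values for single surface genes, 771 kept direction and side of the threshold, 24 lost a call, 39 gained one and 49 changed sign. The cause of a change was not tested. Groups shared only a number and not a known pairing. Among iXEN cells, same-numbered libraries of the 2 media correlated at 0.159, 0.189, 0.132 and -0.0623 (numbers 1, 2, 6 and 9). Of these, 2 of 4 correlated best with their own number.

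Genes called, then surface genes called, changed as follows. In XEN cells in ESC medium against MEF, where edgeR called 3507 and 1, DESeq2 called 5850 and 4, the fit of all 17 libraries called 0 surface genes, the replicate block called 1303 genes, with Cav1 called (adjusted p = 0.0316) and Eng not (adjusted p = 0.0510), and leaving out 1 library gave 372 to 6056 genes and 1 to 3 surface genes. In iXEN cells in XEN medium against MEF (4708 and 2), the fit of all 17 libraries called 1 surface gene, the replicate block 0 genes and 0 surface genes, leaving out iXEN XEN 2 and 9 together gave 7440 and 9, and leaving out 1 library 1842 to 5663 and 0 to 5. In XEN cells in XEN medium against MEF (6830 and 7), the fit of all 17 libraries called 4 surface genes, and leaving out 1 library gave 3985 to 8965 genes and 5 to 8 surface genes. In iXEN cells in ESC medium against MEF (6704 and 7) the range was 5064 to 8081 and 7 to 9. There DESeq2, the fit with no filter and the replicate block each called 8 surface genes, and the fit of all 17 libraries called 6.

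Between iXEN and XEN cells in ESC medium (0 and 0), DESeq2 called 530 and 3, the fit with no filter 5 genes, the replicate block 9 and 1, and leaving out 1 library gave 0 to 49 and 0 to 2. In XEN medium DESeq2 called 134 and 1. Between media DESeq2 called 89 and 1 in XEN cells and 1637 and 3 in iXEN cells, where the fit of all 17 libraries called 330 and 1, leaving out both iXEN XEN 2 and 9 gave 1 gene, and leaving out 1 library gave 0 to 416 and 0 to 1. For the interaction DESeq2 called 498 and 2 and the replicate block 1 gene.

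Signs changed for these log2 fold changes, none called as reported. With the replicate block, Nt5e was -3.18 and -0.92 in XEN cells in ESC and XEN medium against MEF, 3.22 between iXEN and XEN cells in ESC medium, 0.53 and 0.0687 between media in XEN and iXEN cells and -0.51 for the interaction. Vcam1 was 0.19 and 0.17 between iXEN and XEN cells in ESC and XEN medium and -0.33 between media in XEN cells, where RLE factors gave -4e-04. In iXEN cells in XEN medium against MEF, Cd34 was -4.32 and Ly6a -5.32 with the block, and -10.39 and -5.98 without iXEN XEN 2 and 9. Ly6a between iXEN and XEN cells in XEN medium was -0.79 with the block. Without iXEN XEN 2 and 9, Ly6a was -2.92 there, -3.68 between media in iXEN cells (Cav1 also -3.68) and -0.80 for the interaction (Nt5e -1.46).

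Leaving out 1 library in turn gave ranges that crossed 0. Against MEF they were -1.61 to 0.30 for Ly6a, -2.28 to 0.21 for Vcam1 and -3.19 to 2.73 for Nt5e in XEN cells in ESC medium, -1.35 to 1.91 for Cd34 and -2.37 to 2.61 for Ly6a in iXEN cells in XEN medium, and -3.91 to 0.15 for Vcam1 and -0.61 to 1.92 for Nt5e in XEN cells in XEN medium. Between iXEN and XEN cells they were -4.80 to 2.37 for Nt5e and -2.31 to 0.18 for Vcam1 in ESC medium, and -4.09 to 1.12 for Vcam1 in XEN medium. Between media they were -3.46 to 2.0 for Vcam1, -0.39 to 0.63 for Cd44 and -2.67 to 4.65 for Nt5e in XEN cells, and -2.06 to 1.18 for Nt5e and -0.0704 to 5.59 for Ly6a in iXEN cells. For the interaction they were -5.25 to 2.03 for Nt5e and -2.60 to 2.84 for Vcam1.

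Depth limits Fap, Thy1, Cd34 and Eng in the endoderm libraries, where many values lie at or under 3 counts, so that differences among those libraries were not detectable at this depth.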

Other observations

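Markers of other cell types were counted beside the surface genes. Of 8 macrophage markers tested, 7 fell in iXEN cells in either medium, 6 in XEN cells in ESC medium and 7 in XEN cells in XEN medium, all against MEF. Of the smooth muscle and pericyte markers tested, 4 of 6 and 3 of 5 fell in iXEN cells in ESC and XEN medium, and 2 of 5 and 4 of 5 in XEN cells. Among the epithelial markers, such as Epcam and Krt8, 5 of 5 and 4 of 5 rose in iXEN cells and 3 of 4 and 5 of 5 in XEN cells, in ESC and XEN medium. Of 3 blood progenitor markers tested, 1 rose in each of the 4 comparisons, while 2 fell in iXEN cells in ESC medium and 1 in XEN cells in XEN medium. Endothelial markers rose in 4 of 5 tested in both cell types in ESC medium, and in 3 of 5 in iXEN and 5 of 6 in XEN cells in XEN medium. The endoderm markers rose in 10 of 10 in iXEN cells and in 9 of 10 in XEN cells, in either medium.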
